A study of Homo sapiens with 16 samples.

Results

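The dual-specificity phosphatases (DUSPs) of the MAP kinases were followed in ME180 cells after addition of all-trans retinoic acid (ATRA). The members were taken from a list of 10 gene symbols (DUSP1, DUSP2, DUSP4, DUSP5, DUSP6, DUSP7, DUSP8, DUSP10, DUSP14 and DUSP16), by family and not by a threshold on any value, though earlier results of these data were known when the list was made. All 10 had a probe on the array, out of 20046 genes with a symbol there, and 12 probes in all, since DUSP4 and DUSP6 had a second probe. Of the 10, 7 were bright enough to be tested, and DUSP7, DUSP8 and DUSP10 were not.

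MAP kinases are switched on by phosphorylation of a threonine and a tyrosine in their activation loop, and MAP kinase phosphatases remove both phosphates. Several of these phosphatases are themselves encoded by genes that MAP kinase signalling switches on within minutes, so they act as negative feedback. DUSP1, DUSP2, DUSP4 and DUSP5 are nuclear and inducible. DUSP6 and DUSP7 are cytoplasmic and prefer ERK, while DUSP8, DUSP10 and DUSP16 prefer the stress kinases JNK and p38. DUSP14 is a small atypical member that lacks the kinase-binding domain of the others.

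ME180 is a human squamous (epidermoid) carcinoma line of the cervix, taken from an omental metastasis and grown with serum. The treated groups were cells given 10 µM ATRA for 1 h, 3 h or 6 h, and the controls were cells given the vehicle DMSO, for which the labels name no time. Each group had 4 arrays, 16 in all, of biotin-labelled total RNA on an Illumina bead array. No label says that replicates were separate cultures, so the p-values rest on array-to-array spread that may be technical. As 1 cell line was used, the values describe that line alone.

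Values are log2 intensities. The 4 arrays numbered replicate 1, 1 in each group, stood apart as a set: 6590 of 12467 tested genes and probes, or 52.9%, differed in level between them and the rest. Their rows were also displaced by 1 from row 10570 on, and were moved back. All 12 member probes lay before that row, so their own values were as deposited. Keratinocyte markers were bright in every array, KRT5 between 13.44 and 14.13, KRT14 between 11.79 and 13.26 and SFN between 12.39 and 13.75. Of 12 listed squamous and epithelial genes 9 had a probe, KRT6A, KRT17 and TP63 not being among them. The keratins KRT8 and KRT18 lay between 10.96 and 12.45 and between 6.72 and 9.35. DSP and PKP1 fell as low as 8.41 and 8.67, and CDH1 and EPCAM as low as 10.92 and 11.10. Of the markers of other cell types, PTPRC, CD3E, PECAM1, KDR, COL1A2, COL3A1, LUM and PDGFRB were below 6 in every array. VWF and COL1A1 reached 6 in 13 of 16 arrays each, CDH5 in 6, DCN in 4, and CD14 and LYZ in 2 each. CDH5 had a mean of 7.03 at 3 h against 4.44 in DMSO, and VWF 7.04 at 3 h against 6.55 in DMSO. The part of these genes in the results was not tested.

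The retinoid check did not run alike in all treated arrays. Of 10 retinoid response genes 5 were tested, and CYP26B1, a retinoic acid hydroxylase, alone was called, at 3 h (log2 difference 4.85, SE 0.93, limma adjusted p = 0.0291). At 6 h the hydroxylase CYP26A1 gave 12.95 and 13.13 in replicates 1 and 3 but 4.53 and 5.45 in replicates 2 and 4, against 7.26 to 8.83 in DMSO. CYP26B1 gave 10.68 and 11.51 in 6 h replicates 1 and 3 but 6.70 and 7.12 in replicates 2 and 4, and DHRS3, a retinal reductase, gave 12.33 and 12.69 but 9.24 and 10.27. In DMSO CYP26B1 lay between 6.22 and 7.80 and DHRS3 between 11.14 and 11.48. Replicates 2 and 4 at 6 h thus lay within or below the DMSO range at all 3 genes. The counts of members called at 6 h, and some of the differences, are given with and without them. At 1 h CYP26A1 gave 7.51 in replicate 2, within its DMSO range, and 10.77 to 12.14 in the others.

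The 250 bases before the annotated start were read for 8 members from RefSeq (GRCh38.p14). A set of 4 is shown, each on the minus strand and printed in the gene's direction: DUSP1 and DUSP6, which were called at 1 h, DUSP16, whose difference from DMSO was nearly equal at 1 h and 3 h, and DUSP8, which shares an element with DUSP1. Capitals mark every match, on either strand, to 8 motifs: the cAMP response element TGACGTCA and its core TGACG, the AP-1 motif TGANTCA, the E-box CACGTG, the TATA motif TATAA, the EGR motif GCGGGGGCG, the CArG box of SRF and the DR5 element of retinoic acid receptors. The regions are chr5:172771196-172771445 for DUSP1, chr12:89352502-89352751 for DUSP6, chr12:12562864-12563113 for DUSP16 and chr11:1572272-1572521 for DUSP8. The DUSP8 region lies within the annotated span of the gene (chr11:1554051-1572848), so the start used is not its outermost one. The same holds for DUSP14, which is not shown.
DUSP1: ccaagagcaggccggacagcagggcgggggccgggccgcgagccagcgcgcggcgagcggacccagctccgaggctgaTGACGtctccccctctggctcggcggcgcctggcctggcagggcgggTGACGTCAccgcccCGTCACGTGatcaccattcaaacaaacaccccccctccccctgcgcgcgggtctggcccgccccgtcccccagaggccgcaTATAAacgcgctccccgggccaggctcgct
DUSP6: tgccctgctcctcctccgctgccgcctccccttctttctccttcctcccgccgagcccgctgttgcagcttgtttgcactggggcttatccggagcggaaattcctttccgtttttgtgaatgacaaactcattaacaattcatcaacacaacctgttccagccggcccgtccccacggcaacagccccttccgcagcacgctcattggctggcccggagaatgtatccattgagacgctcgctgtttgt
DUSP16: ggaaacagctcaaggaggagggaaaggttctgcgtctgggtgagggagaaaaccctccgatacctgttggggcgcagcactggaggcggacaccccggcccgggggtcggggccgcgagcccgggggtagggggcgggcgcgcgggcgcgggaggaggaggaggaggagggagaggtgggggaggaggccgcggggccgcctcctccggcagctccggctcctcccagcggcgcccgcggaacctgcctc
DUSP8: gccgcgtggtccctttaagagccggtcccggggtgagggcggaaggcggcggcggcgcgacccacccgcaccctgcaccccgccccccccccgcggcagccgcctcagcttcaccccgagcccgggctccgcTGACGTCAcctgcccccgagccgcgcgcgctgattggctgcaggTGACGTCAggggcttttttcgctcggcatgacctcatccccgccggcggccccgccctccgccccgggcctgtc

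The DUSP1 sequence holds TGACGTCA 125 bases before the start, further TGACG cores beginning 172 and 111 bases before it, an E-box at 108, which overlaps the nearer core, and TATAA at 30. DUSP8 holds TGACGTCA at 118 and at 74 bases before the start used for it, which lies inside the gene's span. TGACGTCA itself contains TGACG on both strands. It was present in 2 of the 8 member sequences and in 1.65% of all 35116 promoters of that length in the table, and TGACG in 2 of 8 and in 21.2% of all. DUSP2 held CACGTG at 113 and GCGGGGGCG at 103 bases before its start. These motifs occur in 6.34% and 4.72% of all promoters, and TATAA in 18.9%. DUSP6 and DUSP16 held no match to any of the 8 motifs. None of the 8 members held a CArG box (1.16% of all promoters), a DR5 element (0.074%) or TGANTCA (6.57%). A match is a description of the letters and not evidence of binding.

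ATRA-treated cells carried more mRNA of several DUSPs at 1 h. With no DMSO group named for each time, an effect of ATRA cannot be told apart from one of handling or time since addition. In bulk RNA, a change in the share of cells that express a gene and a change in RNA per cell cannot be told apart. At 1 h, DUSP1, DUSP5 and DUSP6 rose, by 19.6-fold, 10.3-fold and 4.45-fold over DMSO. At 3 h DUSP1 alone passed the test, at 5.98-fold over DMSO, and at 6 h no member did. Between 1 h and 6 h, DUSP1 and DUSP5 fell. On the probes used, all 3 treated means lay above the DMSO mean in the 7 tested members. This has no weight as 7 results, since the 3 comparisons share 1 DMSO mean and DUSP4 passed the filter only through treated arrays, its second probe being highest in DMSO. The means ran 1 h, 3 h, 6 h, DMSO from high to low in 5 of them, and 3 h, 1 h, 6 h, DMSO in DUSP4 and DUSP14.

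Each comparison was a limma contrast within 1 fit of 12467 genes and probes, and was called at a Benjamini-Hochberg adjusted p under 0.05. At 1 h against DMSO, 3 of the 7 tested members were called, all higher, where 0.57% of everything tested was called and 0.489% was called higher. At 3 h against DMSO it was 1 of 7, beside 0.521% called and 0.433% called higher. At 6 h against DMSO 0 of 7 members and 0% of all were called by limma, while 2 members and 548 of all had an unadjusted p under 0.05. At 3 h against 1 h 0 of 7 were called, beside 0.184% of all, with 2 members and 599 of all under 0.05 unadjusted. At 6 h against 3 h it was 0 of 7 and 0% of all, with 3 members and 424 of all under 0.05 unadjusted. At 6 h against 1 h 2 of 7 were called, both lower, beside 0.345% of all called and 0.297% called lower. The members' median log2 difference from DMSO was 1.05 at 1 h, 1.28 at 3 h and 0.61 at 6 h, and that of all tested features was between -0.04 and -0.01. DUSP4 entered the tested set only through treated arrays, so these medians describe the tested members and support nothing. The 3 comparisons with DMSO share the same 4 control arrays.

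Blocking on the replicate 1 set, 5 members were called at 1 h (0.938% of all), 4 at 3 h (3.08% of all), 1 at 3 h against 1 h (0.658% of all) and 3 at 6 h against 1 h (0.674% of all). The added members were DUSP2 and DUSP16 at 1 h, DUSP5, DUSP6 and DUSP16 at 3 h, DUSP5 at 3 h against 1 h and DUSP2 at 6 h against 1 h. Without the replicate 1 arrays the counts were 3 at 1 h (0.61% of all), 1 at 3 h (0.754%), 0 at 3 h against 1 h (0.144%) and 2 at 6 h against 1 h (0.297%). Without 6 h replicates 2 and 4, an alternative added after the values were seen, 0 members were called at 6 h against DMSO (0.249% of all) and 0 at 6 h against 3 h (0% of all). DUSP1 and DUSP5 were called at 6 h against 1 h (0.457% of all).

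**Figure D1:**
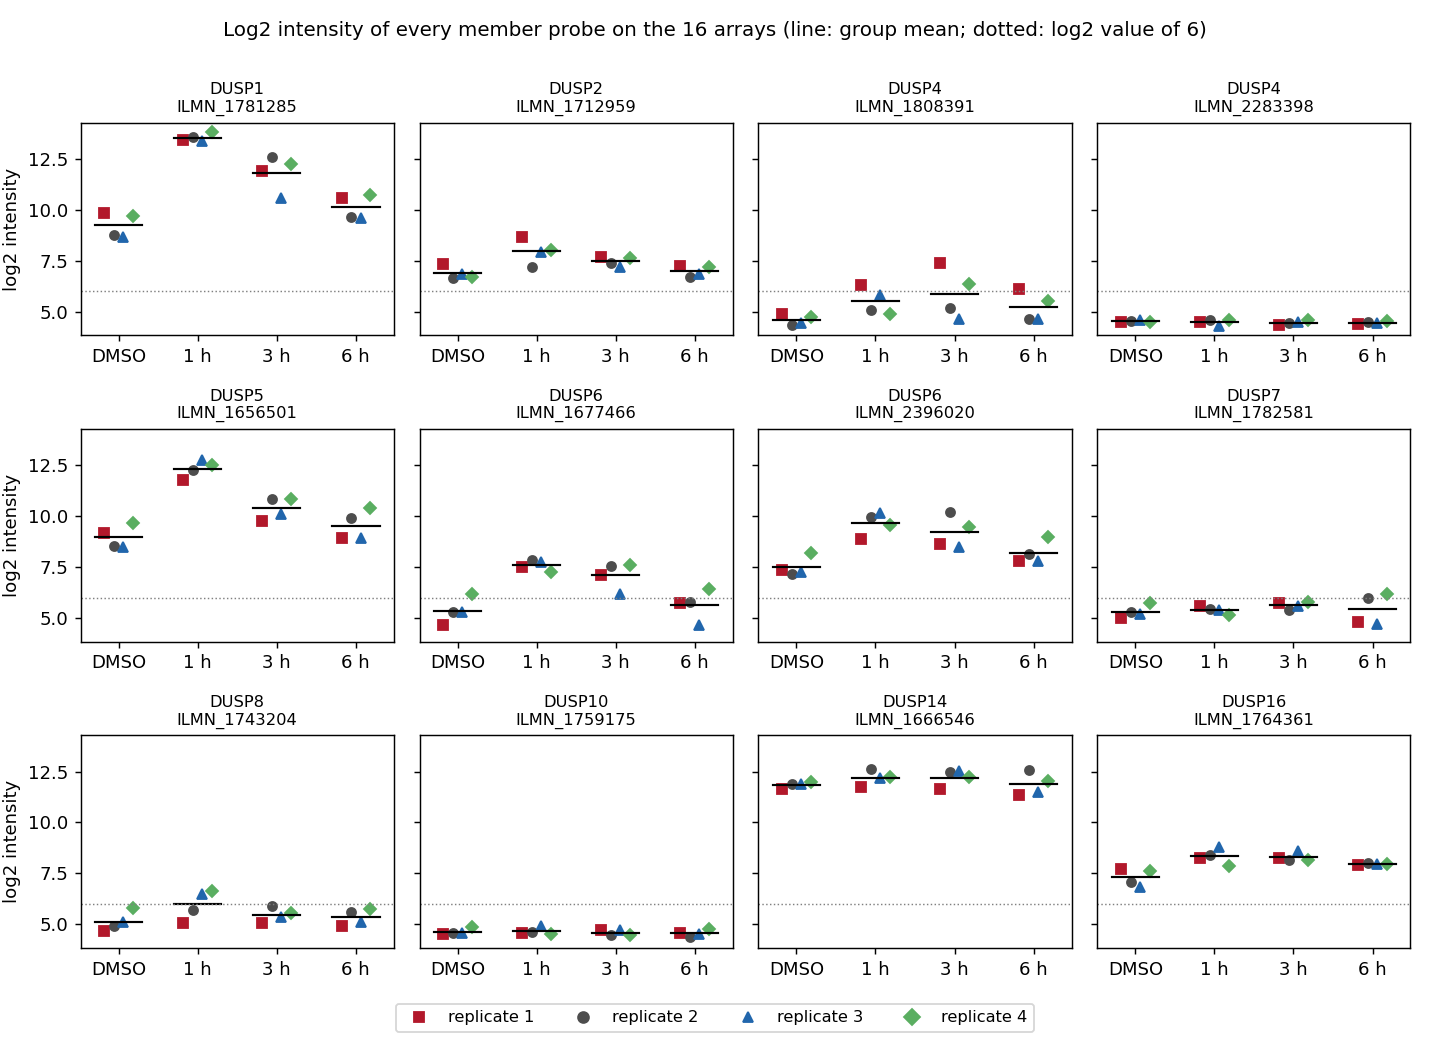
Log2 intensity (y axis) of each of the 12 member probes in DMSO and at 1, 3 and 6 h of ATRA (x axis), with 1 point per array, symbols by replicate number, a line at each group mean and a dotted line at 6, the level used to filter dim probes. DUSP1 and DUSP5 peak at 1 h with all 4 arrays above every DMSO array, DUSP14 stays between 11.35 and 12.64, and DUSP7, DUSP8, DUSP10 and the second DUSP4 probe lie mostly or wholly under the dotted line.

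DUSP1, the founding nuclear member, which acts on p38, JNK and ERK, gave 13.42, 13.56, 13.39 and 13.80 in replicates 1 to 4 at 1 h, against 9.86, 8.76, 8.67 and 9.69 in DMSO. It gave 11.88, 12.59, 10.58 and 12.24 at 3 h and 10.56, 9.65, 9.61 and 10.73 at 6 h. Every array at 1 h and at 3 h lay above every DMSO array, while the 6 h arrays overlapped the DMSO arrays. At 6 h the arrays did not part as the retinoid genes did. The log2 difference from DMSO was 4.30 at 1 h (SE 0.40, limma adjusted p = 4.61e-05) and 2.58 at 3 h (SE 0.40, adjusted p = 0.0100). At 6 h it was 0.89 (95% interval 0.03 to 1.76, adjusted p = 1.00), or 0.84 without 6 h replicates 2 and 4. From 1 h to 6 h the level fell by 3.40 (SE 0.40, limma adjusted p = 0.000598), with no overlap. The 3 h call was lost without DMSO replicate 2 (adjusted p = 0.0534), without 3 h replicate 2 (0.0514), and when only the 3 h and DMSO groups were fitted (0.0519). Within the replicate 1 set the 1 h array stood 3.56 above the DMSO array, and in replicates 2 to 4 the difference was 4.54.

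DUSP5, a nuclear phosphatase specific for ERK, gave 11.79, 12.28, 12.77 and 12.49 at 1 h, against 9.15, 8.54, 8.49 and 9.68 in DMSO. It gave 9.75, 10.84, 10.09 and 10.83 at 3 h and 8.91, 9.89, 8.94 and 10.39 at 6 h. All arrays at 1 h and at 3 h exceeded all DMSO arrays, the 3 h margin being small. The log2 difference from DMSO was 3.37 at 1 h (SE 0.38, limma adjusted p = 0.000222). At 3 h it was 1.42 (95% interval 0.61 to 2.22, adjusted p = 0.129, or 0.0341 blocked on that set), and at 6 h 0.57 (-0.24 to 1.37). Its 6 h arrays were higher in replicates 2 and 4 than in 1 and 3, and without replicates 2 and 4 the 6 h difference from DMSO was -0.04 (adjusted p = 0.979). From 1 h to 6 h DUSP5 fell by 2.80 (SE 0.38, limma adjusted p = 0.00140), and fell by 3.40 without them. From 1 h to 3 h the difference was -1.95 (SE 0.38) with an adjusted p of 0.0561, or 0.0143 when blocked. The call at 3 h against 1 h was also made without DMSO replicate 4 (0.0469), 6 h replicate 1 (0.0473), 6 h replicate 4 (0.0306) or 6 h replicates 2 and 4 together (0.0186). These arrays belong to neither group compared, so the difference itself stayed at -1.95. In all, DUSP5 was called at 3 h against 1 h in 7 of 29 other settings. Its limma adjusted p there reached 0.490, and was 0.134 without the replicate 1 arrays.

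DUSP2, a nuclear phosphatase first found in activated lymphocytes, gave 8.67, 7.18, 7.94 and 8.03 at 1 h, against 7.36, 6.67, 6.85 and 6.73 in DMSO. Its 3 h arrays read 7.68, 7.41, 7.17 and 7.64, and its 6 h arrays read 7.23, 6.68, 6.87 and 7.20. The 1 h and DMSO arrays overlapped through replicate 2 at 1 h and replicate 1 in DMSO. The log2 difference at 1 h was 1.05 (95% interval 0.48 to 1.62, limma adjusted p = 0.153). It was called when the replicate 1 set was blocked (adjusted p = 0.0143) and when 1 h replicate 2 was left out (1.31, adjusted p = 0.0192). DUSP2 was 0.54 higher in the replicate 1 arrays than in the rest (adjusted p = 0.0116). At 6 h against 1 h the difference was -0.96 (adjusted p = 0.324, or 0.0377 when blocked and 0.0434 leaving out 1 h replicate 2).

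DUSP4, a nuclear phosphatase of ERK and JNK, was near the dim end of the scale. Its brighter probe gave 6.33, 5.09, 5.84 and 4.91 at 1 h, against 4.89, 4.37, 4.44 and 4.77 in DMSO. At 3 h it gave 7.40, 5.16, 4.63 and 6.38, and at 6 h 6.10, 4.64, 4.65 and 5.52. No DMSO array and 4 treated arrays reached 6, and 3 of those 4 were replicate 1 arrays. The log2 difference at 3 h was 1.28 (95% interval 0.18 to 2.38, limma adjusted p = 0.474). Over all groups the probe was 1.15 higher in the replicate 1 arrays than in the rest (adjusted p = 0.00487). The second DUSP4 probe never exceeded 4.62, so the probes disagree and the level of DUSP4 is uncertain.

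DUSP6, the cytoplasmic phosphatase specific for ERK, gave 8.89, 9.96, 10.15 and 9.57 on its brighter probe at 1 h, against 7.36, 7.15, 7.24 and 8.20 in DMSO. It gave 8.64, 10.20, 8.48 and 9.48 at 3 h and 7.81, 8.15, 7.78 and 8.96 at 6 h. All arrays at 1 h and at 3 h lay above all DMSO arrays, and the 6 h arrays overlapped both. The log2 difference from DMSO was 2.15 at 1 h (SE 0.40, limma adjusted p = 0.0157). It was 1.71 at 3 h (95% interval 0.87 to 2.56, adjusted p = 0.0732, or 0.0167 when blocked) and 0.69 at 6 h (-0.16 to 1.53), or 0.31 without 6 h replicates 2 and 4. The second probe gave 7.50, 7.84, 7.76 and 7.28 at 1 h, against 4.64, 5.30, 5.29 and 6.17 in DMSO. Both probes moved alike, with 2.25 at 1 h (adjusted p = 0.0106) and 1.77 at 3 h (adjusted p = 0.0565) on the second, fitted probe by probe.

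The 1 h call of DUSP6 depended on single arrays. It was lost without DMSO replicate 1 (adjusted p = 0.0553), 2 (0.0729) or 3 (0.0687), without 1 h replicate 2 (0.0651), 3 (0.0749) or 4 (0.0570), and with no filter on dim probes (0.0580). Its log2 difference stayed between 1.99 and 2.40 over all 29 other settings tried. The calls of DUSP1 and DUSP5 at 1 h against DMSO and at 6 h against 1 h were made in 29 of 29.

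DUSP7, the other cytoplasmic member, was dim. It averaged 5.40 ± 0.17 at 1 h, against 5.30 ± 0.31 in DMSO (SD, n = 4 each), with the groups overlapping, and reached 6 in 2 arrays, both at 6 h. With no filter its log2 difference at 1 h was 0.10 (95% interval -0.53 to 0.72).

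DUSP16, a phosphatase with a preference for JNK, gave 8.25, 8.41, 8.81 and 7.86 at 1 h, against 7.74, 7.10, 6.83 and 7.62 in DMSO. It gave 8.27, 8.17, 8.60 and 8.16 at 3 h and 7.93, 8.02, 7.95 and 7.97 at 6 h, the last with an SD of 0.04. At each time all 4 treated arrays lay above all DMSO arrays. The log2 difference was 1.01 at 1 h (95% interval 0.54 to 1.48, limma adjusted p = 0.0645), 0.98 at 3 h (0.50 to 1.45, adjusted p = 0.0689) and 0.64 at 6 h (0.17 to 1.12, adjusted p = 0.991), or 0.62 without 6 h replicates 2 and 4. When blocked on the replicate 1 set it was called at 1 h (adjusted p = 0.0350) and at 3 h (0.0236). The 1 h call was also made without DMSO replicate 1 (0.0393) or 1 h replicate 4 (0.0357). Of the 29 other settings, DUSP16 was called in 3 at 1 h and in 2 at 3 h. Its limma adjusted p over them reached 0.772 at 1 h and 0.620 at 3 h.

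DUSP8 and DUSP10, the other members that act on JNK and p38, did not pass the filter. DUSP8 gave 5.06, 5.73, 6.50 and 6.66 at 1 h, against 4.69, 4.94, 5.10 and 5.79 in DMSO, and reached 6 only in replicates 3 and 4 at 1 h. With no filter its log2 difference at 1 h was 0.85 (95% interval 0.13 to 1.58), with an unadjusted p of 0.0240 and an adjusted p of 1.00. DUSP10 stayed between 4.40 and 4.91 in all 16 arrays, near the array medians of 4.74, so a change could not be measured.

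DUSP14, the atypical member, gave 11.73, 12.64, 12.18 and 12.25 at 1 h, against 11.65, 11.90, 11.87 and 11.98 in DMSO. It gave 11.62, 12.49, 12.50 and 12.21 at 3 h and 11.35, 12.58, 11.51 and 12.06 at 6 h. The groups overlapped, and the replicate 1 array was the lowest in every group. Its log2 difference from DMSO was 0.35 at 1 h (95% interval -0.23 to 0.93), 0.36 at 3 h (-0.23 to 0.94) and 0.03 at 6 h (-0.56 to 0.61), with limma adjusted p of 1.00 at all 3 times. Without 6 h replicates 2 and 4 the 6 h difference was -0.42 (adjusted p = 0.704). The replicate 1 arrays differed from the rest by -0.59 (adjusted p = 0.00549).

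**Figure D2:**
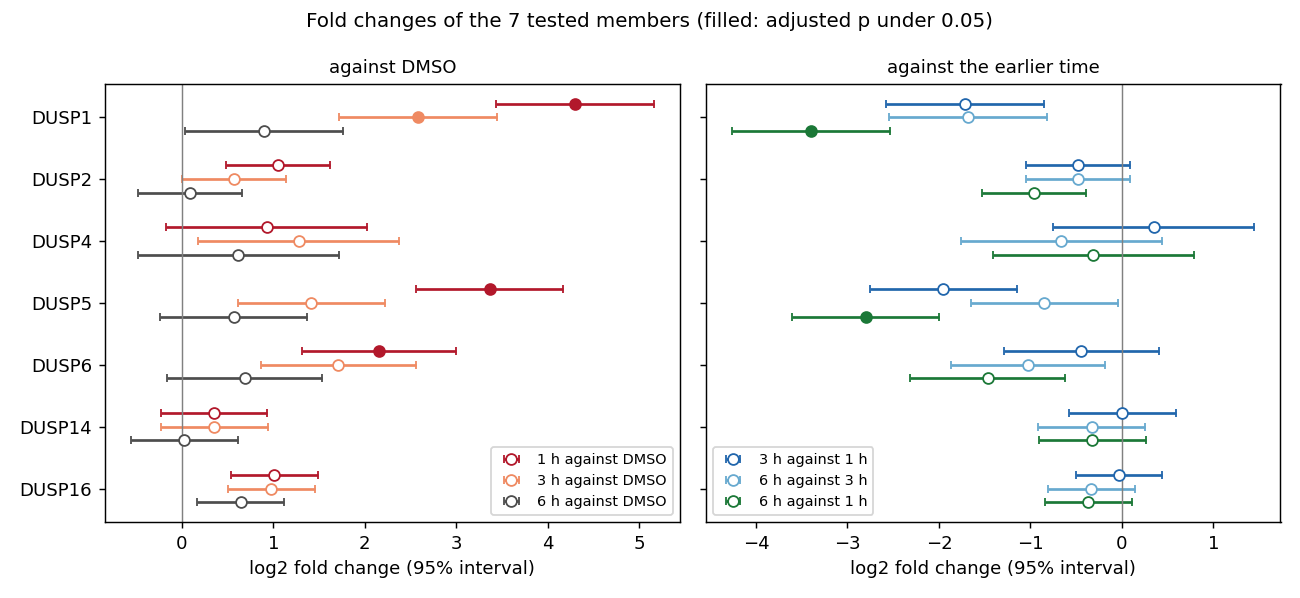
Log2 fold changes (x axis) of the 7 tested members (y axis) with their 95% intervals from limma, against DMSO on the left and against an earlier time on the right, filled where the adjusted p is under 0.05. Filled points are DUSP1, DUSP5 and DUSP6 at 1 h and DUSP1 at 3 h on the left, and DUSP1 and DUSP5 at 6 h against 1 h on the right.

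The fitted differences between 1 h and 3 h varied among the members. The difference, 3 h against 1 h, was -1.72 for DUSP1 and -1.95 for DUSP5, but -0.44 for DUSP6 and -0.03 for DUSP16. DUSP1 and DUSP5 were each set against DUSP6 and DUSP16 within every array, in 4 pairs chosen after the values were seen, so the values are a description with no test. The difference of DUSP1 minus that of DUSP6 was -1.27, and minus that of DUSP16 it was -1.69. For DUSP5 the values were -1.51 against DUSP6 and -1.92 against DUSP16. Leaving out any one of these arrays kept every difference between -2.12 and -1.07. Without the replicate 1 arrays they lay between -1.87 and -1.27.

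On the probes used, DMSO replicates 1 and 4 stood above replicates 2 and 3 at DUSP1, DUSP4, DUSP5, DUSP6 and DUSP16, and also at FOSL1 and ATF3. The ERK-responsive factors FOS and EGR1 ran the other way, FOS with 5.73 and 6.69 in DMSO replicates 1 and 4 and 8.43 and 8.69 in replicates 2 and 3. On the second probes of DUSP4 and DUSP6 replicate 1 was instead the lowest DMSO array, at 4.50 and 4.64. The sizes of the differences from DMSO carry this spread.

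Across the 16 arrays, after the mean difference of the replicate 1 set was removed, DUSP1 ran with DUSP5 (Pearson r = 0.96) and DUSP6 (0.95), and DUSP5 with DUSP6 (0.89). DUSP2 correlated with DUSP1 at 0.87. With the other members DUSP14 ranged between 0.14 and 0.58, and DUSP4 between 0.14 and 0.67. These are descriptions over arrays that share groups and normalization. Of all genes with a symbol, those with the highest r to DUSP1 were HBEGF, an EGF receptor ligand (0.98), EPHA2, an ephrin receptor (0.97), and DUSP5. For DUSP5 they were CSRNP1, a nuclear protein (0.97), PPP1R15A, a regulatory subunit of protein phosphatase 1 induced by stress (0.97), and IFFO1, an intermediate filament family gene (0.97). For DUSP6 they were MAFF, a small MAF transcription factor (0.96), FOSL1, an AP-1 subunit (0.95), and DUSP1 (0.95). The log2 differences of these genes at 1 h against DMSO ranged between 1.70 for PPP1R15A and 4.30 for DUSP1.

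The kinases that the DUSPs act on showed no called change. Of the 15 genes of the ERK cascade 7 were tested and 0 were called at any time. Their median log2 difference from DMSO was -0.11 at 1 h and -0.10 at 3 h, beside -0.03 and -0.04 for all tested features. Of 17 genes of the p38, JNK and ERK5 cascades 11 were tested and 0 were called, with medians of 0.02 and 0.01. Of the 10 kinases that MAP kinases activate, all 10 were tested and 0 were called, with medians of -0.02 and 0.01. By unadjusted p under 0.05, limma found 0 of these genes at 1 h and 2 at 3 h. Of all 12467 tested features, 480 at 1 h and 953 at 3 h were under 0.05, so these counts do not stand out. These 2, named after their values were seen, were MAP2K1, the kinase upstream of ERK (0.78 at 3 h, adjusted p = 0.262), and MAP2K3, the kinase upstream of p38 (0.95, adjusted p = 0.126).

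Other genes of the same fold gave 0 calls. Of 16 further genes of the dual-specificity phosphatase family 10 were tested, with a median of 0.02 at 1 h and -0.11 at 3 h. At each time 1 had an unadjusted p under 0.05, beside 480 of all 12467 tested at 1 h and 953 at 3 h. That was DUSP22, a phosphatase of the JNK pathway, at -0.34 at 1 h and at 3 h (adjusted p = 1.00 and 0.516). The tyrosine phosphatases PTPN5, PTPN7 and PTPRR, which also act on MAP kinases, were below 6 in every array. Of 7 Sprouty and SPRED genes, feedback inhibitors of Ras signalling, 3 were tested and 0 were called, with medians of 0.62 at 1 h and 0.79 at 3 h. All 3 had an unadjusted p under 0.05 at 3 h, beside 953 of all 12467 tested. SPRY1, which is 1 of these 3, reached 6 in only 5 of 16 arrays. SPRED1 gave a mean of 10.17 at 3 h against 8.75 in DMSO (difference 1.41, adjusted p = 0.122).

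Of 18 listed genes that ERK signalling induces, most of them transcription factors, 14 were tested. At 1 h 8 of these rose and 0 fell, beside 0.489% of all called higher, with a list median of 1.89, and the other 6 did not pass. The 6 with the smallest adjusted p were FOSB (5.70), IER2 (1.55), ATF3 (3.33), FOS (3.58), IER3 (2.05) and JUNB (1.83), given as log2 differences with limma adjusted p between 0.000190 and 0.00927. At 3 h FOSL1 alone of this list was called. FOSL1 gave 8.51, 8.60, 9.83 and 9.32 at 1 h, against 6.21, 5.33, 5.49 and 6.58 in DMSO, and 8.17, 9.95, 8.11 and 9.91 at 3 h. Its log2 differences were 3.16 at 1 h and 3.13 at 3 h (adjusted p = 0.0104 and 0.0210). FOS gave 10.91, 10.84, 10.54 and 11.56 at 1 h, and 7.06, 8.08, 7.36 and 7.81 at 3 h, within its DMSO range. At 3 h against 1 h, 5 of the 14 were lower (FOS, FOSB, IER2, JUNB and ATF3), beside 0.16% of all called lower. The same 5 were lower at 6 h against 1 h, beside 0.297% of all.

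**Figure D3:**
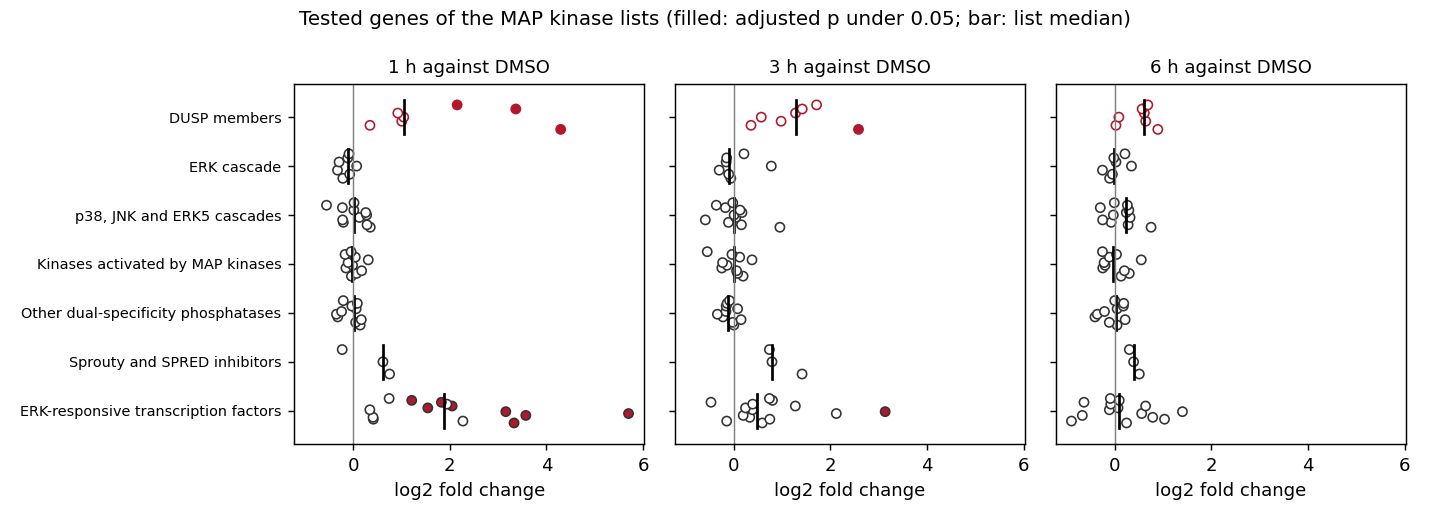
Log2 fold changes against DMSO (x axis) at 1, 3 and 6 h for the tested genes of the DUSP members and of 6 MAP kinase lists (y axis), with 1 point per gene, filled where the adjusted p is under 0.05, and a bar at each list's median. At 1 h the DUSP members and the list labelled ERK-responsive transcription factors hold all the filled points, 3 and 8, and at 6 h none is filled.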

How the data were processed

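The authors deposited 1 log2 value per probe and array, already quantile normalized, as the values themselves show. limma appears in the submitters' processing notes without a version or a role. The log base, offset and background correction are not given in the sources read here. Base 2 was assumed, under which the highest value, 14.73, corresponds to a linear intensity of 27246. A second deposited table, of non-normalized values, has 32 columns that match no label, and only its row order was used: in it, the replicate 1 values stood 1 row low from row 10570 of 47230 on (r with the other arrays 0.979 before, 0.325 after, 0.979 once moved).

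Genes came from the platform annotation (30113 probes with 1 symbol, 8 with several, 17109 not listed). A gene had to reach a log2 value of 6 in 4 or more of the 16 arrays and was read from its brightest probe, which left 12467 genes and probes. limma 3.58.1 in R 4.3.3 fitted the 4 groups over 16 arrays without a block (12 residual degrees of freedom), with Benjamini-Hochberg adjustment over everything tested, and was checked on simulated data. Arrays carry no counts, so the number of arrays limits the precision. Motifs were searched in RefSeq promoters with Python 3.11.15.

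The members, the context lists and the filter were chosen with earlier results of these data known. All members are named; of the context lists, genes that pass a comparison with DMSO are counted and up to 6 named by smallest adjusted p; genes like a member are the 3 with the highest Pearson r. Alternatives covered the filter, probe choice, normalization, groups fitted, replicate number and array set as blocks, the variance prior, rows as deposited and each array left out. An alternative without 6 h replicates 2 and 4 was added after the values were seen.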

Additional observations from a re-analysis of the deposited data

How the results depend on the processing

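The members were counted again under 29 other settings, 1 of them (6 h replicates 2 and 4 left out together) added after the values were seen, in each of the 6 comparisons. DUSP1 and DUSP5 were called at 1 h against DMSO and at 6 h against 1 h under every setting, and 0 members were called at 6 h against DMSO or against 3 h under any. At 3 h against DMSO 1 member was called, beside 0.521% of all. The count there was 2 with the mean of a gene's probes (DUSP6 added, limma adjusted p = 0.0461) and 4 with the replicate 1 set blocked (3.08% of all). It was 0 when only the 3 h and DMSO groups were fitted and 0 with the rows as deposited (DUSP1 at adjusted p = 0.108). When single arrays were left out it was 0 to 1. At 1 h the count was 5 with the replicate 1 set blocked (0.938% of all), and with the rows as deposited DUSP6 had an adjusted p of 0.153. At 3 h against 1 h 0 were called, beside 0.184% of all. The count there was 1 with that set blocked (0.658% of all) and 1 without 6 h replicates 2 and 4 together (0.345% of all). It was also 1 with a trended and robust variance prior, and 0 to 1 when single arrays were left out. The causes of these changes were not tested. For settings without a share of all beside them, the counts have no background to be read against.

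The replicate numbers did not pair the arrays. Deviations of same-numbered arrays correlated between 0.79 and 0.90 for number 1, between 0.05 and 0.62 for number 2, between -0.13 and 0.44 for number 3 and between -0.13 and 0.70 for number 4, and 6 of 16 arrays correlated best with their own number. With the replicate block the count was 4 at 3 h against DMSO (2.74% of all called) and 2 at 3 h against 1 h (DUSP1 and DUSP5, 0.505% of all). The block also added DUSP2 at 1 h against DMSO (adjusted p = 0.00980, 4 members, 0.938% of all) and at 6 h against 1 h (0.0253, 3 members, 0.618% of all).

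The sign turned only for small differences that were not called. As single arrays were left out, DUSP14 ranged between -0.21 and 0.20 at 6 h against DMSO and between -0.15 and 0.20 at 3 h against 1 h, DUSP16 between -0.19 and 0.13 and DUSP4 between -0.15 and 0.77 at 3 h against 1 h. Without 6 h replicates 2 and 4 together, the 6 h difference from DMSO was -0.42 for DUSP14 and -0.037 for DUSP5. Probes near the floor of the scale limit what can be said of DUSP4, DUSP7, DUSP8 and DUSP10.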
